A study of Mus musculus with 56 samples.

Results

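The genes described here are the mouse mitochondrial carrier genes of the Slc25a series, measured in the gastrocnemius, the large calf muscle. Membership was decided by symbol: every gene named Slc25a followed by a number that had a probe set with 1 gene symbol was taken. This gave 44 of the 18193 genes on the array, and 39 of them were bright enough to be tested, of 12351 genes tested in all. The other 5, Slc25a18, Slc25a31, Slc25a41, Slc25a48 and Slc25a54, lay on average below the filter, a log2 level of 5.71, and were not tested.

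RNA of female C57BL/6 mice bought from the Jackson Laboratory was hybridised to 56 arrays of 55 mice in 9 groups. Exposed mice breathed 4% mainstream cigarette smoke through the nose for 2 hours a day on 5 days a week, and sham mice breathed air in the same way. The groups comprised mice left untreated (week 0), sham air at 2, 12 and 24 weeks, smoke at 2, 12 and 24 weeks, and 2 cessation arms called FA and RA. For mice under cessation the protocol gives 12 weeks of sham exposure after 12 weeks of smoke, with no word on how the arms differ. The sham-air groups are labelled FA as well, so the FA arm shares its label with them and the RA arm does not. The sources used here do not define FA or RA, and they give neither the age of the mice nor the time of day at which muscle was taken. Each group held 6 mice with 1 array each, except smoke at 12 weeks with 7 mice, of which mouse G8 had 2 arrays that were averaged.

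Carriers of this family are proteins of the inner mitochondrial membrane that exchange one small molecule for another between the matrix and the cytosol. They move ADP and ATP, phosphate, amino acids, di- and tricarboxylates, acylcarnitines, cofactors and iron, and so connect the matrix pathways with the rest of the cell. In skeletal muscle the adenine nucleotide, phosphate, aspartate-glutamate and acylcarnitine carriers serve the respiratory supply of ATP for contraction. The uncoupling proteins are close relatives, and most carriers reach the inner membrane through the TIM22 import path.

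Of the 39 tested members 4 passed in at least 1 of the 12 comparisons, namely Slc25a25, Slc25a30, Slc25a34 and Slc25a28. A member passed when its Benjamini-Hochberg adjusted p, taken over all 12351 genes in 1 limma model of all groups, was under 0.05. None passed in a comparison of smoke with sham air of the same length. The 8 passes fell on both cessation arms and on comparisons between controls, out of 468 tests of a member in a comparison, of which 74 had an unadjusted p under 0.05. Over all genes and the same 12 comparisons 0.752% of tests passed and 12% had an unadjusted p under 0.05, the shares against which the counts by role are read.

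The sequences upstream of these 4 genes are shown because they are the members that passed, and because clock genes moved in the same comparisons, as described with the results. RefSeq promoter windows of build GRCm38.p6, 250 bases before to 50 after the start, were present for 34 of the 44 members, with 43 windows in all. The 250 bases before the start are printed 5′ to 3′ in the direction of transcription, with motif matches in capitals. All 4 genes lie on the minus strand. The windows are chr2:32424067-32424316 for Slc25a25, the one of its 3 annotated starts that held a match, chr14:75787038-75787287 for Slc25a30, chr19:43674882-43675131 for Slc25a28 and chr4:141623835-141624084 for Slc25a34.
Slc25a25: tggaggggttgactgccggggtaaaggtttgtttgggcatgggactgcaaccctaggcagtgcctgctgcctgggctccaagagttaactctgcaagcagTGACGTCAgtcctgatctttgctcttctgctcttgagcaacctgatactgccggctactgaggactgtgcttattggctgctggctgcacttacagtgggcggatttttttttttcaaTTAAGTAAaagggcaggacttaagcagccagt
Slc25a30: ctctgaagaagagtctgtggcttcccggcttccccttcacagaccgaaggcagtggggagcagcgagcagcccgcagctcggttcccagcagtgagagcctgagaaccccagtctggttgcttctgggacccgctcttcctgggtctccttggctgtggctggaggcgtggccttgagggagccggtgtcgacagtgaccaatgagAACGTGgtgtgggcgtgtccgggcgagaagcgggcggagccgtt
Slc25a28: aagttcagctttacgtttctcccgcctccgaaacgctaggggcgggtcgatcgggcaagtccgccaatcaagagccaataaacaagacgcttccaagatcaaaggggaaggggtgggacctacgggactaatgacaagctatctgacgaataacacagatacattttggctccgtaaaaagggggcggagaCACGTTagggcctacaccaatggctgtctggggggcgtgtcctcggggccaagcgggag
Slc25a34: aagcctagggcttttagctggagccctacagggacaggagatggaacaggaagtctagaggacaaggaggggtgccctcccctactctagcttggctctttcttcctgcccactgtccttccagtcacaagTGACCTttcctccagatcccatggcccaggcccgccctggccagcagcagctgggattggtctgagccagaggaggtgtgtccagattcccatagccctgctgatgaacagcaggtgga

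Both strands of each 300-base window were searched for 5 motifs. The cyclic AMP response element TGACGTCA, bound by CREB, stood at position -150 relative to a start of Slc25a25, and 1.79% of all 32851 windows held it. The D-box TTANGTAA, bound by DBP and its relatives, stood at -32 from the same start, and 2.32% of windows held it. CACGTT, a variant of the E-box that clock factors bind, stood at -44 from the start of Slc25a30, where it is read on the other strand as AACGTG, and at -59 from that of Slc25a28. It was in 4.68% of all windows. AGGTCA, the core site of nuclear receptors, stood at -119 from the start of Slc25a34 on the other strand, and 16.3% of windows held it. The full E-box CACGTG was in none of the printed windows and in 7.15% of all windows. In the family it was found for Slc25a1, Slc25a13, Slc25a14, Slc25a15, Slc25a31, Slc25a33 and Slc25a36. These matches are letters in a window, and no binding was measured.

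All levels are log2 of the deposited intensity after 16 was added. A level is given with its SD over mice, and a difference with the SE that limma estimated. A fold is on this same scale and understates the change of dim genes. The tissue label was met by its markers: all 8 skeletal muscle markers were above the filter, with a mean per array from 12.48 to 12.94. The array medians of intensity ran from 62.5 to 77.5. Precision is bounded by how many arrays each group has.

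A set of 12 arrays stood apart by Glycam1, which lymph node venules and mammary tissue express, with intensities from 6944 to 10546 against at most 306.7 in the other 44. They came from 1 mouse each of the untreated, 2-week air, 24-week air and FA groups, 2 mice of 12-week smoke including 1 of the arrays of G8, and 3 mice each of 24-week smoke and RA. The mean of the 10 lymphocyte markers above the filter, of 15 listed, was 8.48 to 11.56 in these arrays and 4.79 to 6.44 in the others. The 7 adipocyte markers of 9 listed were at 11.18 to 12.38 against 9.04 to 12.29, and muscle markers were at 12.48 to 12.85 against 12.83 to 12.94. In whole muscle, fewer cells of a type and less RNA per cell cannot be told apart.

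Several carriers were higher in the high-Glycam1 arrays. The array medians differed by over 0.5 for 6 tested members, all higher there, and none was lower by that much. The share of all genes that differed as much, or did not overlap, was not computed. These counts therefore do not single out the carriers. Slc25a1, the citrate carrier that exports citrate for fatty acid synthesis, differed by 1.96. Slc25a53 differed by 1.76 and was the 1 tested member whose arrays of both kinds did not overlap, at 6.96 to 9.90 against 5.42 to 6.61. Slc25a10, the dicarboxylate carrier, differed by 1.74, Slc25a45 by 1.01, Slc25a5 by 0.70 and Slc25a22, a glutamate carrier, by 0.59. Mouse G8 gave both kinds of array from 1 animal: Slc25a53 was 6.12 on one and 8.21 on the other, Slc25a1 was 6.73 and 8.15, and Slc25a10 differed by 1.58. The high-Glycam1 array of G8 is also among the arrays whose sample identifiers lie outside the main run. The part of this in the difference was not tested. Values without these arrays are given beside many of the results, but not beside all of them.

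**Figure D1:**
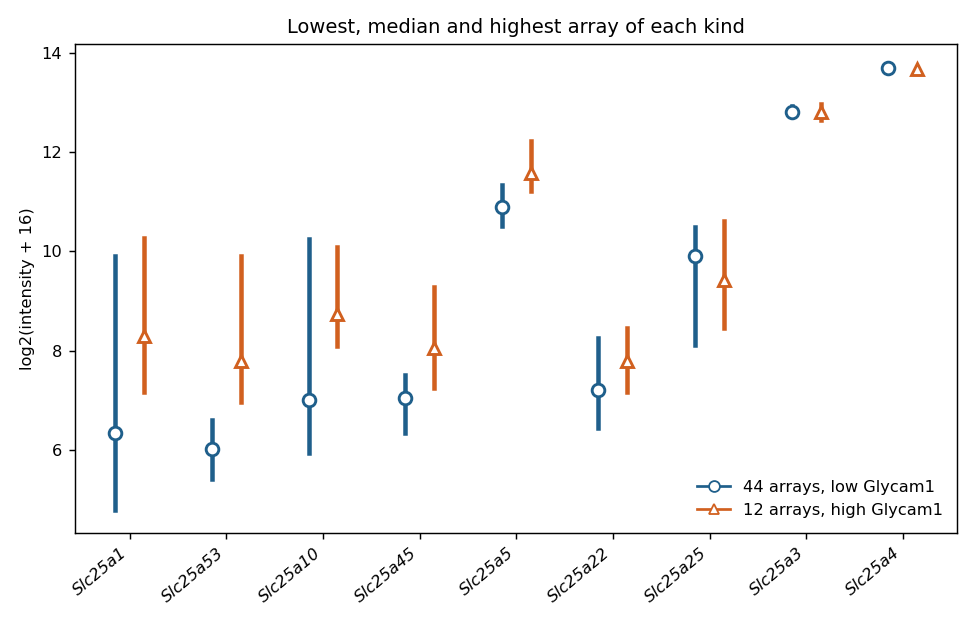
Level in log2(intensity + 16) of 9 Slc25a genes on the y axis, with a bar from the lowest to the highest array and an open mark at the median, for the 44 low-Glycam1 arrays (circles) and the 12 high-Glycam1 arrays (triangles). The bars of Slc25a53 do not overlap, while those of Slc25a3 and Slc25a4 lie at the same height.

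Among the adenine nucleotide and phosphate carriers, 9 of 11 listed genes were tested and 1, Slc25a25, passed. Slc25a4, the ADP/ATP carrier of heart and muscle, was the steadiest member. Its lowest, median and highest mouse were at 13.63, 13.69 and 13.73, its SD within groups was 0.022, and its group means spanned 0.033. Its mean intensity, 13213, is near the highest value of the whole file, 15890, so a rise there could be hard to see. Slc25a3, the phosphate carrier, ran from 12.65 to 12.97 with group means that spanned 0.12.

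Slc25a5, the ADP/ATP carrier of dividing and other non-muscle cells, was less steady, with mice from 10.51 to 12.22. Its highest group was 24-week smoke, at 11.46 ± 0.39 (SD, n = 6), against 10.96 ± 0.31 (n = 6) in 24-week air. That difference of 0.50 had an adjusted p of 0.14 in limma and was 0.31 without the high-Glycam1 arrays. The difference between the smoke effects at 24 and 2 weeks was 0.82 ± 0.29 for Slc25a5 (adjusted p = 0.19, limma), and 0.44 without those arrays. Slc25a16, Slc25a17, Slc25a23, Slc25a24 and Slc25a42, which handle coenzyme A, nucleotides or ATP-Mg and phosphate, did not pass in any of the 12 comparisons. Over all 9 genes of the group, 14 of 108 tests had an unadjusted p under 0.05.

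Slc25a25 is a calcium-dependent carrier that exchanges ATP-Mg for phosphate, and it gave the largest called difference from 24-week air. In RA mice its lowest, median and highest levels were 8.11, 8.39 and 8.97. In 24-week air they were 9.85, 10.10 and 10.37. The groups did not overlap, and all 6 RA mice lay below all 6 air mice.

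The RA mean of Slc25a25 was 8.43 ± 0.29 (SD, n = 6) against 10.11 ± 0.21 (n = 6) in air, a difference of -1.67 ± 0.21 (SE), or 3.19-fold lower (limma adjusted p = 5.1e-07). The exact two-sided permutation test over the 12 mice gave p = 0.0022, the smallest that 6 against 6 allows. Permutation p values here and below were computed only for Slc25a34 and for members that had passed in limma. They use the same mice and are not adjusted, so they are no separate support for a call. Without the high-Glycam1 arrays, with 3 RA and 5 air mice left, the difference was -1.90 (limma adjusted p = 1.1e-05). Leaving out each mouse in turn kept it between -1.78 and -1.61. Of all tested genes 1.76% passed in this comparison, and 2 of 39 members did.

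FA mice were lower in Slc25a25 too, but 1 of them was not. Their lowest, median and highest levels were 8.53, 9.08 and 10.18, and 5 of 6 lay below every air mouse. Replicate 5, at 10.18, lay inside the air range. The mean was 9.14 ± 0.56 (SD, n = 6), a difference from air of -0.96 ± 0.21 (limma adjusted p = 0.039; exact permutation p = 0.0087), or 1.95-fold lower. Of all genes 0.081% passed in this comparison, and Slc25a25 was the 1 member.

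The FA call of Slc25a25 sat close to the threshold. It was lost when any of 10 of the 12 mice was left out, with adjusted p up to 0.16 without FA replicate 6, and kept without air replicate 4 or FA replicate 5. The difference stayed between -1.17 and -0.84 in these fits. Its adjusted p rose to 0.060 when dim genes were kept and to 0.25 with only those groups in the fit.

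Mice at 24 weeks of smoke were higher in Slc25a25 than either cessation arm. The lowest, median and highest smoke mice were at 9.38, 10.27 and 10.61, and all 6 lay above every RA mouse and every FA mouse but replicate 5, which 4 of 6 exceeded. Replicate 6, the lowest, carried a high-Glycam1 array. The smoke mean of 10.19 ± 0.44 (SD, n = 6) was above FA by 1.04 ± 0.21 (limma adjusted p = 0.0032; exact permutation p = 0.0065) and above RA by 1.75 ± 0.21 (limma adjusted p = 1.4e-07; exact permutation p = 0.0022). Against FA 3.55% of all genes passed and against RA 2.34%, and Slc25a25 was the 1 member each time. Without the high-Glycam1 arrays the difference from FA was 1.19, with 3 smoke and 5 FA mice left (exact permutation p = 0.054). From RA it was 2.11, with 3 mice left in each group, where the smallest possible permutation p is 0.1. Fitted with 24-week smoke and FA alone, all mice included, the difference from FA had an adjusted p of 0.35. All comparisons of 24-week groups share the same mice, so they are not independent of each other.

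RA and FA themselves were compared as well. No member passed in limma, 1 member, Slc25a25, had an unadjusted p under 0.05, 0.0243% of all genes passed and 4.15% had an unadjusted p under 0.05. Slc25a25 was lower in RA by 0.71 with an SE of 0.21, an adjusted p of 0.52 and a 95% interval of the difference from -1.12 to -0.29. The next lowest p values belonged to Slc25a17, a peroxisomal carrier of coenzyme A and nucleotides, at 0.21 ± 0.13, and Slc25a38, a glycine carrier, at -0.16 ± 0.10 (adjusted p = 0.96 for both, limma).

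Ordered by mean, Slc25a25 stood at 10.19 in 2-week smoke and 24-week smoke, 10.12 in 2-week air, 10.11 in 24-week air, 9.69 in 12-week air, 9.63 in 12-week smoke, 9.61 in untreated mice, 9.14 in FA and 8.43 in RA. The first 4 of these means lie within 1 SD of each other, as do the next 3. The ranges of untreated mice, 8.82 to 10.49, and of FA mice overlapped widely. The 12-week groups, at 9.31 to 10.15 in air and 9.28 to 10.06 in smoke, overlapped almost fully.

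The chosen probe set of Slc25a25 carries an x in its name, which marks sequence shared with other transcripts. Another probe set, without that mark, gave the same order of the cessation arms with larger differences. Its RA mice ran from 5.40 to 6.07 and its 24-week air mice from 8.16 to 9.33, without overlap. The difference was -2.84 ± 0.33 for RA (limma adjusted p = 1.5e-07) and -1.92 ± 0.33 for FA (adjusted p = 0.011) when all probe sets were tested. In that fit the chosen probe set had an adjusted p of 0.060 in FA. Between 24-week smoke and 24-week air the probe sets differed in direction: the unmarked one was different in smoke by -0.47 ± 0.33 (limma adjusted p = 0.37), at 8.13 ± 0.55 against 8.60 ± 0.50 (SD, n = 6 each), and the chosen one was at 10.19 against 10.11. On the unmarked probe set FA reached 7.60 at most and lay wholly below 24-week air. A further one lay below the filter.

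**Figure D2:**
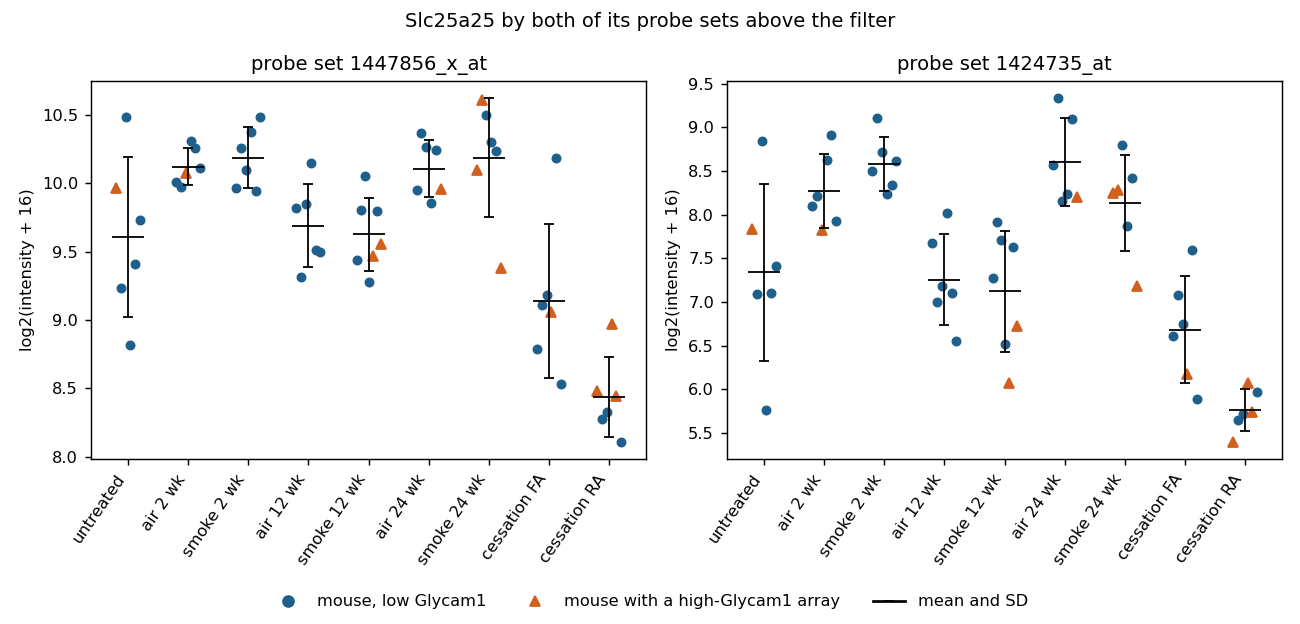
Level of Slc25a25 in log2(intensity + 16) on the y axis for each mouse of the 9 groups, on the chosen probe set (x) at left and the unmarked one at right. Triangles are mice with a high-Glycam1 array, and black bars are means with SDs. On both panels the 6 RA mice sit below all mice of 24-week air, and on the right panel the FA mice do as well.

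Among the 3 relatives of the uncoupling proteins, Slc25a30 passed, and Slc25a14 and Slc25a27 did not. Of the 36 tests of the group 9 had an unadjusted p under 0.05. Slc25a30, first described as a kidney carrier, was lower in RA. Its lowest, median and highest RA mice were at 6.76, 6.92 and 7.32, against 7.36, 7.58 and 8.03 in 24-week air. All 6 RA mice lay below all air mice, though by as little as the distance from 7.32 to 7.36.

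The difference of Slc25a30 was -0.63 ± 0.15 (SE), or 1.55-fold lower (limma adjusted p = 0.018; exact permutation p = 0.0022). It was -0.63 without the high-Glycam1 arrays (limma adjusted p = 0.037). The call was lost without air replicate 5 (-0.54, adjusted p = 0.068) or RA replicate 2 (-0.59, adjusted p = 0.061). In FA Slc25a30 ran from 6.73 to 7.56 and overlapped with air, with a mean of 7.15 ± 0.33 (SD, n = 6).

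Slc25a30 was also higher after 2 weeks of sham air than in untreated mice. Untreated mice ran from 6.88 to 7.37 with a median of 7.08, and air mice from 7.35 to 8.12 with a median of 7.78. The lowest air mouse, replicate 3, had a high-Glycam1 array and lay just inside the untreated range, and the other 5 lay above it. The difference was 0.65 ± 0.15, or 1.56-fold (limma adjusted p = 0.029; exact permutation p = 0.0065), and 0.70 without the high-Glycam1 arrays (adjusted p = 0.0084). Leaving out any of 7 of the 12 mice lost the call, with adjusted p up to 0.10 without air replicate 5 and differences between 0.58 and 0.73.

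The chosen probe set of Slc25a30 is marked (s) for shared sequence too. The other one above the filter, unmarked, differed by -0.39 ± 0.17 in RA (limma adjusted p = 0.30) and by 0.65 ± 0.17 between 2-week air and untreated mice (adjusted p = 0.085), and passed in neither. A further 3 probe sets of the gene lay below the filter. Slc25a27, known as uncoupling protein 4, was the member of lowest p between smoke and air at 2 weeks, at 8.88 ± 0.26 against 8.49 ± 0.12 (SD, n = 6 each), a difference of 0.39 ± 0.17 that did not pass (limma adjusted p = 0.998).

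Slc25a34, a carrier whose substrate is not firmly assigned, had the widest span of group means of all 39 tested members, 1.87. Untreated mice were at 7.01, 7.72 and 8.42 as lowest, median and highest, and 2-week air mice at 4.90, 5.90 and 6.41. The groups did not overlap. The means were 5.80 ± 0.57 in air and 7.67 ± 0.52 in untreated mice (SD, n = 6 each).

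The fall of Slc25a34 from untreated mice to 2-week air was -1.87 ± 0.41, or 3.66-fold (limma adjusted p = 0.012; exact permutation p = 0.0022). It was -1.72 without the high-Glycam1 arrays (adjusted p = 0.0093). Without untreated replicate 4 it was -1.72 with an adjusted p of 0.054, and it passed without any other mouse. Of all genes 0.518% passed between 2-week air and untreated mice, and 2 of 39 members did. The mean of the 8 slow fibre markers, all above the filter, ran from 11.83 to 12.40 in untreated mice and from 11.58 to 12.14 in 2-week air, and its part in the fall was not tested. Untreated mice differ from air mice in week, handling and exposure at the same time, and these cannot be told apart.

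Smoke made no detected difference to Slc25a34. At 2 weeks smoke mice ran from 5.48 to 6.88 and the difference from air was 0.35 ± 0.41, at 12 weeks it was -0.36 ± 0.39 and at 24 weeks -0.15 ± 0.41. Without the high-Glycam1 arrays these were 0.17, -0.17 and -0.04. The limma adjusted p values were 0.998, 0.999 and 0.84, and the exact permutation p values 0.30, 0.30 and 0.79. The 95% interval at 24 weeks, from -0.96 to 0.67, includes changes of well over 1.5-fold either way. The direction at 24 weeks turned to 0.16 with the lymphocyte mean as a covariate.

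In the cessation arms Slc25a34 was 7.12 ± 0.61 in FA and 7.24 ± 1.00 in RA (SD, n = 6 each), against 6.63 ± 0.64 in 24-week air. RA was above air by 0.62 ± 0.41 (limma adjusted p = 0.51), and the groups overlapped. Without the high-Glycam1 arrays the 3 RA mice left were at 7.34, 8.20 and 8.52, and the difference was 1.36 (adjusted p = 0.071; exact permutation p = 0.054). The 3 RA mice with such arrays were at 5.82 to 6.84. In order of means, untreated mice at 7.67 came first, then RA, FA at 7.12, 12-week air at 6.89, 24-week air at 6.63, 12-week smoke at 6.53, 24-week smoke at 6.48, 2-week smoke at 6.15 and 2-week air at 5.80. Every neighbouring pair in this order lay within 1 SD of each other. The gene had 1 probe set.

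The other tested genes listed as carriers without a firmly assigned substrate or with another role were Slc25a35 and Slc25a46. The latter is a protein of the outer membrane that takes part in mitochondrial dynamics. Neither passed. Slc25a35 was 7.53 ± 0.09 in 2-week smoke and 7.86 ± 0.44 in 2-week air, a difference of -0.33 ± 0.18 (limma adjusted p = 0.998) that was -0.17 without the high-Glycam1 arrays.

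**Figure D3:**
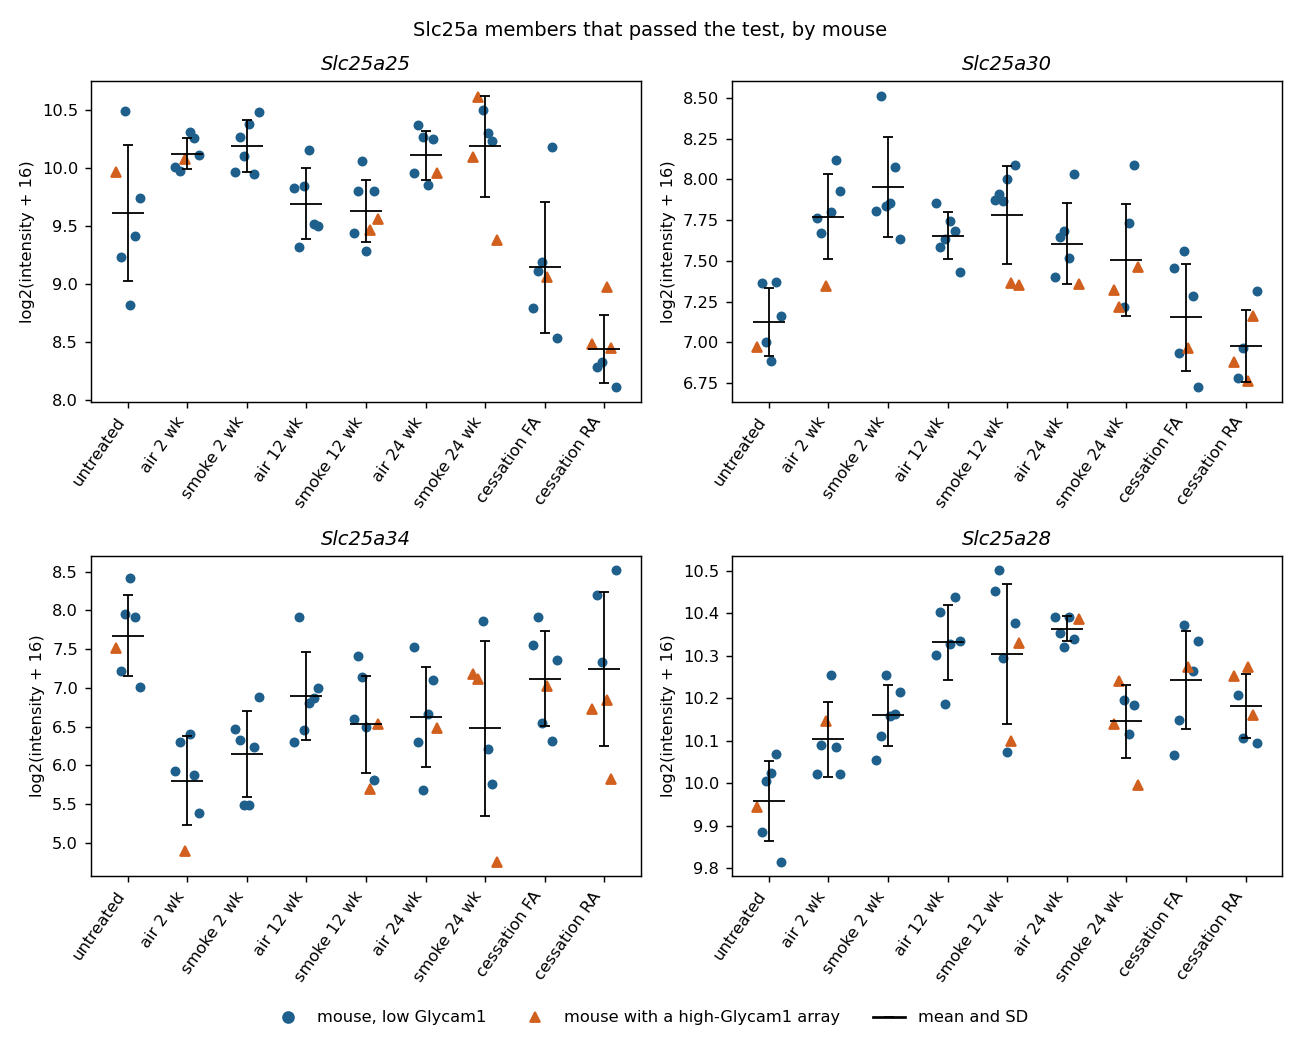
Level in log2(intensity + 16) on the y axis for each of the 55 mice in the 9 groups, for the 4 Slc25a genes that passed. Circles are mice with low Glycam1, triangles mice with a high-Glycam1 array, and black bars means with SDs. Slc25a25 and Slc25a30 are lowest in RA, Slc25a34 is highest in untreated mice and lowest in 2-week air, and Slc25a28 runs in a narrow band from 9.82 to 10.50.

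Slc25a28, known as mitoferrin 2, imports iron for heme and iron-sulfur clusters. It rose between 2 and 24 weeks of sham air. The lowest, median and highest mice were at 10.02, 10.09 and 10.26 at 2 weeks and at 10.32, 10.37 and 10.39 at 24 weeks, without overlap. The difference was 0.26 ± 0.06, or 1.20-fold (limma adjusted p = 0.043; exact permutation p = 0.0022). Of all genes 0.219% passed in this comparison, and 1 of 39 members did.

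That call of Slc25a28 was lost without any of 9 of the 12 mice, with adjusted p up to 0.16 without 2-week air replicate 6, and with quantile normalization (adjusted p = 0.054). Differences stayed between 0.24 and 0.29. At 24 weeks of smoke the gene was 10.15 ± 0.09 against 10.36 ± 0.03 in air (SD, n = 6 each), with no overlap. The difference of -0.22 ± 0.06 did not pass (limma adjusted p = 0.059, and 0.14 without the high-Glycam1 arrays). The change in the smoke effect from 2 to 24 weeks was -0.27 ± 0.08 (adjusted p = 0.17).

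The genes listed as carriers of cofactors, nucleotides, metals and glutathione, Slc25a28 among them, numbered 12, and 10 were tested. Of the 120 tests of this group 21 had an unadjusted p under 0.05. Slc25a37, mitoferrin 1, ran from 9.34 to 9.96 over all mice and was 9.79 ± 0.17 in 24-week smoke and 9.60 ± 0.14 in 24-week air. Slc25a33, a pyrimidine nucleotide carrier, was lowest in 24-week smoke at 8.87 ± 0.45 and highest in 12-week air at 9.24 ± 0.18. Slc25a36, also a pyrimidine nucleotide carrier, was 11.56 ± 0.14 in 2-week air and 11.84 ± 0.13 in untreated mice. Its difference of -0.28 did not pass (limma adjusted p = 0.21), and without the high-Glycam1 arrays it was -0.32 and passed (adjusted p = 0.025). Slc25a26, Slc25a32, Slc25a39, Slc25a40, Slc25a51 and Slc25a53 did not pass in any comparison.

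Of the amino acid and malate-aspartate carriers, 9 of 10 listed were tested and none passed in any comparison in limma, while 13 of 108 tests had an unadjusted p under 0.05. Slc25a12, the calcium-regulated aspartate-glutamate carrier of muscle, lay between 11.66 and 12.11 in every mouse but 1. That mouse, 24-week smoke replicate 6, was at 10.79. It had a high-Glycam1 array with the highest lymphocyte marker mean of all arrays, 11.56. Slc25a13, its liver counterpart, was dimmer and ran from 5.18 to 6.91. Slc25a11, the malate-oxoglutarate carrier, ran from 10.09 to 11.38, and the same smoke mouse was the lowest.

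Slc25a29, a carrier of basic amino acids, was 7.39 ± 0.60 in 24-week smoke and 7.85 ± 0.15 in 24-week air (SD, n = 6 each). The difference of -0.46 ± 0.15 did not pass (limma adjusted p = 0.084), and it was -0.17 without the high-Glycam1 arrays. Averaged over the 3 times the smoke difference of Slc25a29 was -0.28 ± 0.09 (adjusted p = 0.35), and -0.14 without those arrays. Slc25a2, an ornithine carrier near the filter, was 5.53 ± 0.28 in 12-week smoke (n = 7) and 5.88 ± 0.20 in 12-week air (n = 6), a difference of -0.36 ± 0.14 (adjusted p = 0.999), and its averaged difference was -0.21 ± 0.08 (adjusted p = 0.46). Slc25a15, Slc25a22, Slc25a38 and Slc25a44 did not pass.

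Of the carboxylate and fuel carriers, 5 of 7 listed were tested and none passed in limma, while 8 of 60 tests had an unadjusted p under 0.05. Slc25a20, which brings acylcarnitines in for oxidation, was between 11.65 and 12.35, with group means that spanned 0.16. Slc25a1 and Slc25a10 had the largest SDs within groups of all tested members, 1.16 and 1.02. Slc25a10 was 6.82 ± 0.54 in 2-week smoke and 7.72 ± 1.28 in 2-week air, a difference of -0.90 ± 0.57 (limma adjusted p = 0.998) that was -0.42 without the high-Glycam1 arrays. Slc25a1 ran from 4.78 to 10.27 over all mice, and its group means ran from 5.84 in untreated mice to 7.51 in 24-week air. No comparison of it passed. In RA against 24-week air Slc25a1 differed by -0.73 ± 0.65 (limma adjusted p = 0.64), and by -1.75 ± 0.55 without the high-Glycam1 arrays (adjusted p = 0.063). Slc25a10 differed by -0.46 ± 0.57 (adjusted p = 0.75), and by -1.38 ± 0.47 without them (adjusted p = 0.084).

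Slc25a47, measured by a probe set with shared sequence, was 7.57 ± 0.74 in 24-week smoke and 8.17 ± 0.21 in 24-week air (SD, n = 6 each). The difference was -0.60 ± 0.18 (limma adjusted p = 0.073) and -0.26 without the high-Glycam1 arrays. At 12 weeks it was -0.33 ± 0.18 (adjusted p = 0.999), averaged over the times -0.27 ± 0.10 (adjusted p = 0.47), and the smoke effect changed from 2 to 24 weeks by -0.73 ± 0.26 (adjusted p = 0.19). Without the high-Glycam1 arrays the averaged difference was -0.14 and the change of the smoke effect -0.38. Slc25a45 did not pass. The smoke mouse at 6.22, replicate 6, was the lowest of all mice for Slc25a47 and had a high-Glycam1 array.

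**Figure D4:**
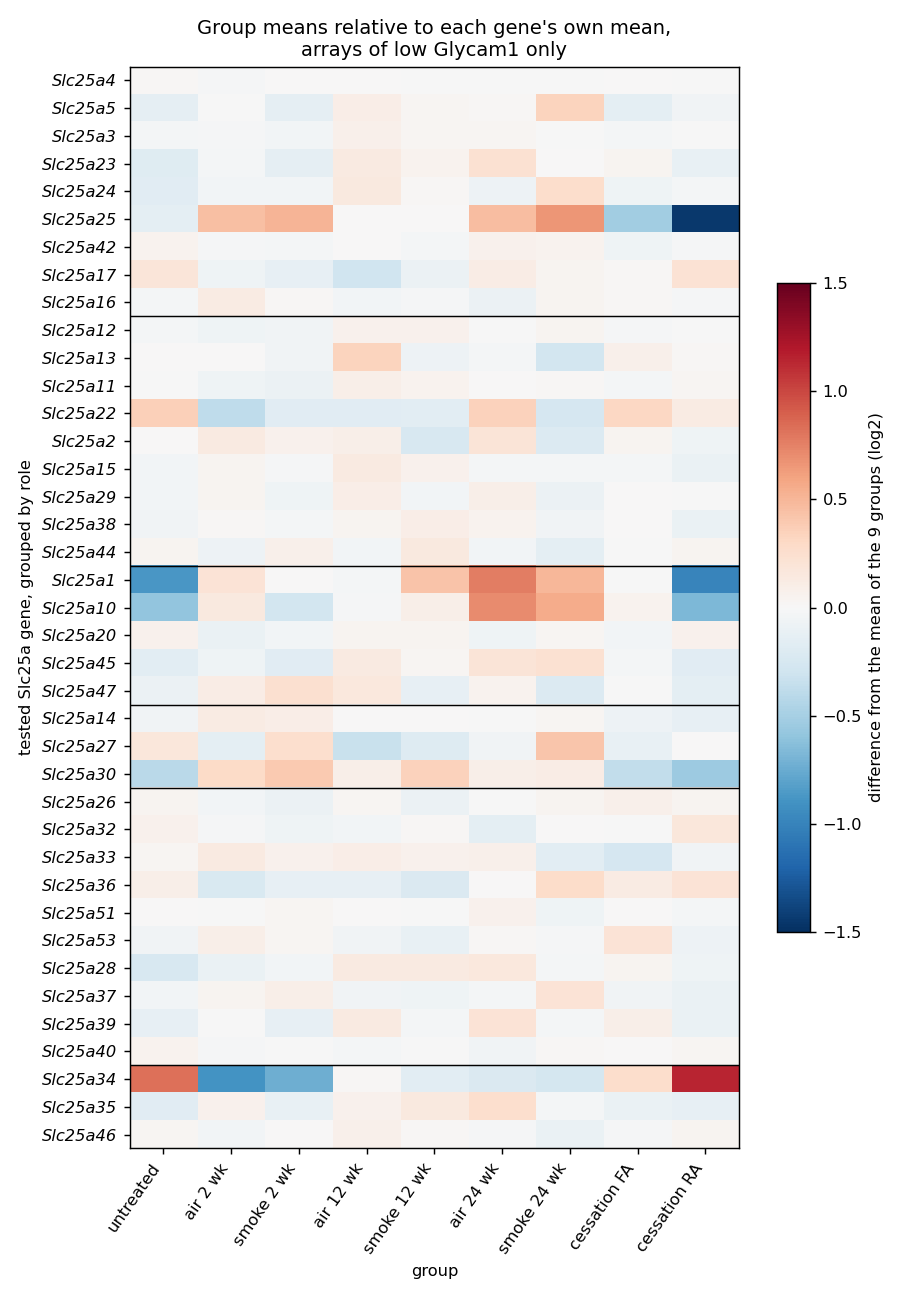
Mean level of each of the 39 tested Slc25a genes (rows, grouped by role, with lines between roles) in each of the 9 groups (columns), as the difference in log2 units from that gene's mean over the groups, with high-Glycam1 arrays left out. Red is higher and blue lower. Slc25a25, Slc25a1, Slc25a10, Slc25a30 and Slc25a34 carry the strongest colours, and most other rows are pale.

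Smoke against sham air, the main contrast of the study, can be read over the whole family. At 2 weeks no member passed in limma and 1 had an unadjusted p under 0.05, and of all genes 0% passed and 2.06% had an unadjusted p under 0.05. At 12 weeks no member passed and 1 had an unadjusted p under 0.05, against 0.0081% and 1.86% of all genes. At 12 weeks the lowest p values after Slc25a2 and Slc25a47 belonged to Slc25a17, at 0.23 ± 0.13 (adjusted p = 0.999). The median difference of the 39 members was -0.02 at 2 weeks and -0.01 at 12 weeks, and of all genes -0.02 and -0.01.

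At 24 weeks of smoke no member passed in limma, but 15 of 39 had an unadjusted p under 0.05, 4 of them higher and 11 lower, beside 24.6% of all genes. Of all genes 0.47% passed. The median difference of the members was -0.12 and of all genes -0.03. Without the high-Glycam1 arrays, which were 3 of 6 in smoke and 1 of 6 in air, the members' median was -0.03, all genes' was -0.01, and 9 of 39 members had an unadjusted p under 0.05, beside 20.5% of all genes. The part of these arrays in the difference was not tested beyond these values. Leaving out 1 mouse gave 0 to 4 members past the threshold, with 4 (Slc25a28, Slc25a29, Slc25a46 and Slc25a47) without smoke replicate 3. It gave 2 members without smoke replicate 1, 2 or 4 or air replicate 3. The share of all genes past the threshold in these fits is not given, so the counts do not single out the carriers.

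Averaged over 2, 12 and 24 weeks no member passed in limma and 8 had an unadjusted p under 0.05, against 0.0324% and 9.17% of all genes. For the change of the smoke effect between 2 and 24 weeks no member passed and 5 had an unadjusted p under 0.05, against 0.0324% and 18.6% of all genes. The medians of the members were -0.045 and -0.0445.

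In the comparisons where members passed, the unadjusted counts can be set beside those of all genes. In FA against 24-week air 5 of 39 members had an unadjusted p under 0.05, against 7% of all genes, and in RA 7 of 39, against 13.7%. For 24-week smoke the counts were 11 of 39 against FA, beside 27.7% of all genes, and 5 of 39 against RA, beside 15.8%. Between 2-week air and untreated mice they were 10 of 39, beside 7.38%, and between 24-week and 2-week air 5 of 39, beside 11.8%. The median difference of the members was -0.08 in RA and -0.07 in FA, and of all genes -0.01 and -0.02.

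**Figure D5:**
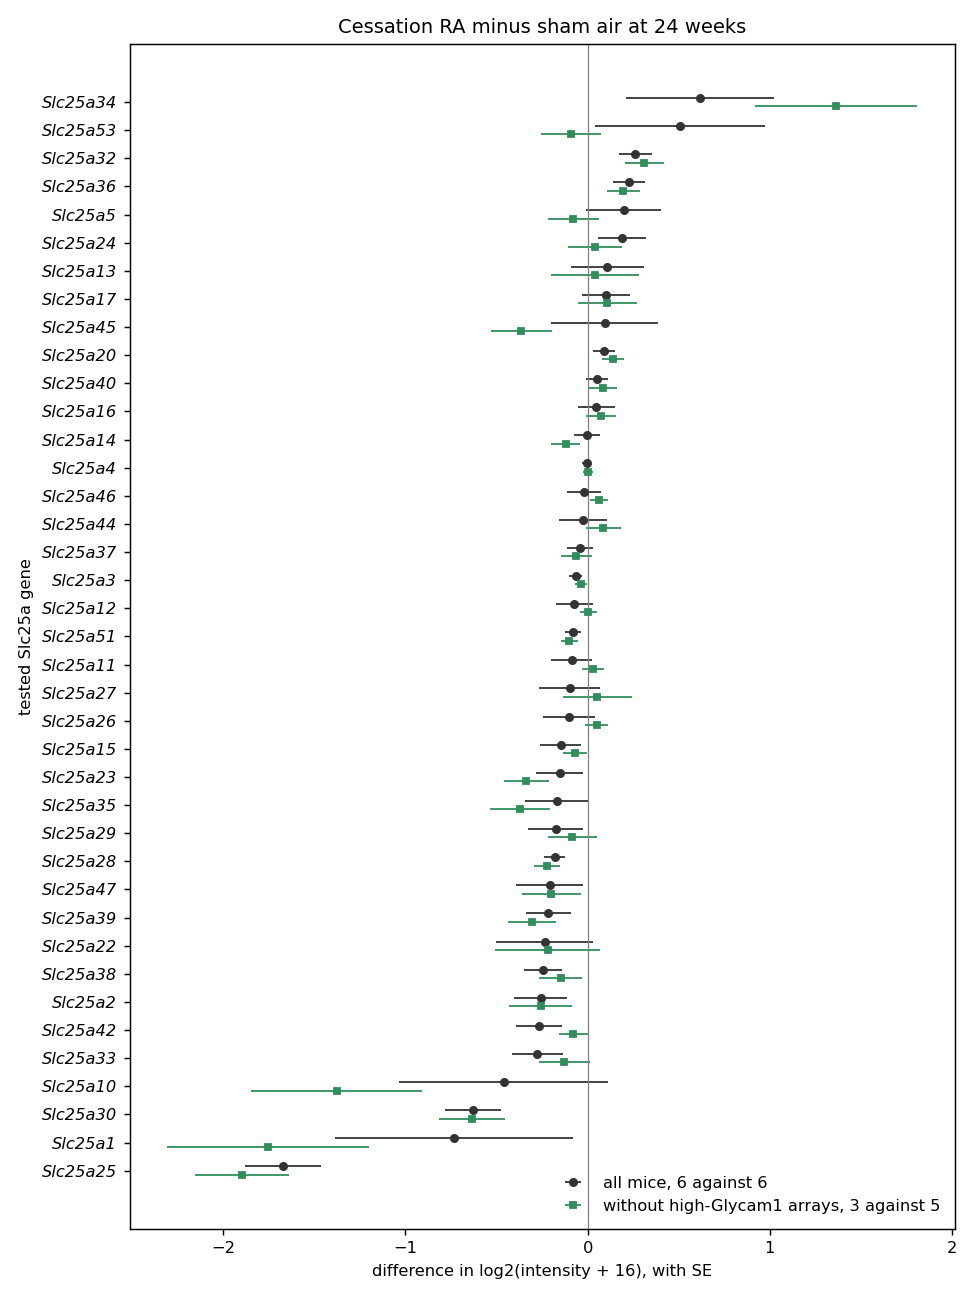
Difference between RA and 24-week sham air in log2(intensity + 16) on the x axis for the 39 tested Slc25a genes, with SE bars. Circles are all mice (6 against 6) and squares the arrays of low Glycam1 (3 against 5). Slc25a25 lies at the far left at -1.67 and -1.90, Slc25a30 at -0.63 in both, and Slc25a1 and Slc25a10 move most between the fits.

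Clock genes moved in the comparisons in which these 4 members passed, and their part in the results was not tested. Some also moved where no member passed. In 24-week smoke against 24-week air Dbp, a clock output factor, differed by -0.70 (limma adjusted p = 0.0079). Ciart at -0.95 and Per1 at -0.68 did not pass there (adjusted p = 0.054 and 0.077). Others moved little: the means in smoke and air were 9.55 and 9.51 for Per2 and 6.42 and 6.38 for Npas2. In RA against 24-week air Per1 differed by -1.93 and Per2 by -1.58, both repressors of the circadian clock, and the activators Arntl by 1.20 and Npas2 by 1.80 (limma adjusted p at most 1.9e-06). In FA Arntl differed by 0.73 (adjusted p = 0.039) and Per1 by -0.90 (adjusted p = 0.080). Between 2-week air and untreated mice Arntl differed by -1.38, Npas2 by -1.48 and Per2 by 1.22 (adjusted p at most 0.00031). Between 24-week and 2-week air Arntl differed by 0.69 (adjusted p = 0.043). The 2 repressors went opposite ways there, with means at 24 and 2 weeks of 9.51 and 9.99 for Per2 and 9.37 and 9.20 for Per1. Between RA and FA Npas2 differed by 1.20 (adjusted p = 0.0023). Against 24-week smoke RA was lower in Per2 by 1.62 and FA by 0.74 (adjusted p = 4.4e-07 and 0.031). Between 24-week smoke and FA, Dbp differed by -0.44 and Ciart by -0.12 (adjusted p = 0.054 and 0.75).

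The genes that work with the carriers were read from lists of known function. Of 3 tested family proteins with other symbols, Mtch1 and Ucp3 passed in 1 comparison each. Mtch1, an outer membrane relative of the carriers, was 9.33 ± 0.12 in RA and 9.67 ± 0.14 in 24-week air (SD, n = 6 each), a difference of -0.34 ± 0.09 (limma adjusted p = 0.034). Ucp3, the uncoupling protein of muscle, was 10.19 ± 0.66 in 24-week smoke and 9.20 ± 0.41 in RA, a difference of 0.99 ± 0.27 (adjusted p = 0.038). It was 1.00 without the high-Glycam1 arrays, with an adjusted p of 0.13. Of 12 genes of carrier import, Timm10, a chaperone of the space between the membranes, passed in the same comparison at -0.27 ± 0.07 (adjusted p = 0.039). It was at 10.41 ± 0.31 in 24-week smoke, with its lowest mouse at 9.80, and at 10.68 ± 0.11 in RA (SD, n = 6 each). In each group 3 of 6 mice had a high-Glycam1 array, and the value of Timm10 without them is not given here.

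No gene passed in limma among 4 tested of the carnitine shuttle, 6 of the malate-aspartate and glycerol phosphate shuttles, and 11 other membrane channels and exchange proteins. Of their 48, 72 and 132 tests, 10, 10 and 8 had an unadjusted p under 0.05, beside 12% of the tests of all genes. At 24 weeks of smoke the lowest p values were those of Cpt1a, the non-muscle carnitine palmitoyltransferase, at 0.93 ± 0.26 (adjusted p = 0.059), Gpd2, the mitochondrial enzyme of the glycerol phosphate shuttle, at -0.25 ± 0.08 (adjusted p = 0.083) and Letm1 at -0.35 ± 0.12 (adjusted p = 0.091). The lowest smoke mouse was at 11.53 in Gpd2 (mean 12.07 ± 0.27, SD) and at 8.76 in Letm1 (mean 9.53 ± 0.41). Values of these genes without the high-Glycam1 arrays are not given here.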

How the data were processed

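Expression was measured on 56 arrays. The values used are intensity per probe set on a linear scale, as deposited by the authors, and the summarisation and scaling of probes are not stated in the sources at hand. Per the labels' protocols, RNA was amplified and labelled in the same way for all arrays.

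Intensities were floored at -15 (5 values), 16 was added and log2 was taken. Probe sets with 1 gene symbol in the platform annotation were kept (34945, against 932 with several and 9160 with none). Membership used the symbol of the annotation. Genes were named by the RefSeq symbol of the same gene identifier where there was one, and otherwise as in the annotation. For each gene the probe set of highest mean was used. A gene was tested if its mean reached a log2 level of 5.71 (intensity 36.4), which is the 40th percentile over probe sets. Of the tested members 7 rested on probe sets with a suffix for shared sequence (x or s), and 21 of 44 had 1 probe set.

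Groups came from the labels, and replicates were numbered in accession order. One limma model (3.58.1, R 4.3.3) held 55 mice in 9 groups (46 residual degrees of freedom, 48.2 moderated). It gave 12 comparisons, with Benjamini-Hochberg adjustment over 12351 genes. The model was tested on simulated data. Exact permutation tests, correlations and figures were made in Python 3.11.15 with scipy 1.17.1, on arrays held in numpy 2.4.6, and drawn with matplotlib 3.10.9.

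The members, role and partner lists, and the clock genes were chosen with earlier results of these data known. Values were given for members past the threshold, for the 3 of lowest p where none passed, and for 14 further members fixed by name and Slc25a34. Nothing says that mice were housed separately, so p-values measure the spread between these animals. The closing section gives the effect of 14 processing alternatives and of leaving out each mouse. Some genes of the role lists were not analysed here.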

Additional observations from a re-analysis of the deposited data

Results flagged for a closer look

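For 16 members, 144 groups were examined for a highest or lowest mouse that stood far from its nearest neighbour relative to the range of the group, and 13 were marked. Chance marks about 1 in 20 groups. Of the 13 mice 7 had a high-Glycam1 array, and 4 of the 13 were replicate 6 of 24-week smoke. Why these mice stood apart was not tested.

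Replicate 6 of 24-week smoke was high in Slc25a5, at 12.22 with its nearest neighbour at 11.50, and low in the carriers of muscle fuel supply. It was at 10.79 in Slc25a12 (nearest 11.76), 10.09 in Slc25a11 (nearest 10.96) and 11.65 in Slc25a20 (nearest 12.10). Replicate 3 of 2-week air, also with a high-Glycam1 array, was at 12.01 in Slc25a5 (nearest 11.06) and 10.92 in Slc25a11 (nearest 11.12). Replicate 5 of RA, with such an array, was at 12.69 in Slc25a3 (nearest 12.78).

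The other marks fell on mice with low Glycam1 and were small. In FA, replicate 3 was at 11.83 in Slc25a12 (nearest 11.94) and replicate 1 at 11.34 in Slc25a11 (nearest 11.20). For Slc25a20, replicate 1 of 12-week air was at 12.07 (nearest 12.20) and replicate 2 of RA at 12.32 (nearest 12.20). For Slc25a37, replicate 6 of 2-week air was at 9.87 (nearest 9.67) and replicate 2 of 12-week air at 9.34 (nearest 9.57).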

How the results depend on the processing

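Slc25a25 stayed past the threshold in RA against 24-week air and in 24-week smoke against RA in all alternatives and with each mouse left out. With array weights the number of members past the threshold was 2 for smoke at 24 weeks, 1 for the change of the smoke effect, 5 for RA, 5 for 24-week smoke against FA, 3 against RA, 6 for 2-week air against untreated mice and 2 for 24-week against 2-week air. All genes past the threshold rose as well, to between 551 and 981 in these comparisons, from between 4 and 438 without weights. In FA against air the number of members was 0 with no filter, with the filter at the 20th percentile and with only the groups compared in the fit (0, 1 and 0 of all genes). With the mean of a gene's probe sets it was 1 in RA and 1 in 2-week air against untreated mice (204 and 60 of all genes). For 24-week smoke against FA it was 0 with only those groups (6 of all genes) and 5 without arrays outside the main run of identifiers (1299 of all genes). Against RA it was 2 with a pseudocount of 1 (294 of all genes), 4 with the lymphocyte covariate (754 of all genes) and 2 with the lower accession of the G8 arrays (291 of all genes). With the higher one it was 1 for 2-week air against untreated mice (57 of all genes). For 24-week against 2-week air it was 0 with no filter, with quantile normalization and with only those groups (19, 20 and 9 of all genes). The smoke difference of Slc25a34 turned to 0.16 at 24 weeks and 0.079 averaged over times with the lymphocyte covariate, and the averaged one to 0.053 without arrays outside the main run. Apart from filters and smaller fits, which change the genes or samples used, the cause was not tested.

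Leaving out each mouse gave 0 to 4 members for smoke at 24 weeks, 0 to 1 for FA, 1 to 2 for RA, 1 to 5 for 24-week smoke against FA, 1 to 3 against RA, 0 to 2 for 2-week air against untreated mice and 0 to 1 for 24-week against 2-week air. Against FA, 5 passed without smoke replicate 3, 4 or 5, and 2 without smoke replicate 1 or FA replicate 4. Against RA, 3 passed without smoke replicate 1, and 2 without smoke replicate 2 or 3 or RA replicate 5 or 6. These counts too stand without the share of all genes in the same fits. The difference of Slc25a34 ran from -0.42 to 0.20 for smoke at 24 weeks, -0.15 to 0.060 averaged and -0.13 to 0.41 for RA against FA. No paired analysis was possible because each mouse belonged to 1 group only. Dim members near the filter are limited by signal over background.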

Other observations

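Across the 44 mice with 1 low-Glycam1 array, levels of members were set against 4 measures: the mean of adipocyte markers, the mean of slow fibre markers, and the clock genes Arntl and Per2. This gave 156 relations, with permutation p values adjusted over them, each computed also after group means were removed. By Pearson's r, 10 of 39 members passed with Arntl, 10 with Per2, 7 with adipocyte markers and 9 with slow fibre markers. Within groups these counts were 3, 2, 6 and 2. Other genes were not set against these measures, so the counts of members do not single out the carriers. The points share group, array processing and tissue sample.

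Slc25a10 and Slc25a1 followed the adipocyte markers even where Glycam1 was low. For Slc25a10 Pearson's r was 0.87 and Spearman's rho 0.78, with r 0.76 without the 2 mice farthest from the median and 0.85 within groups (permutation p adjusted 0.00078 within groups, from the smallest p that these permutations can give, 1e-05). For Slc25a1 r was 0.83 and rho 0.70, with 0.70 and 0.79, and the same adjusted p. Slc25a13, an aspartate-glutamate carrier, rose with the slow fibre markers (r 0.67, rho 0.71, 0.64 without the 2 farthest mice, 0.74 within groups with a permutation p adjusted 0.00104), and Slc25a16 ran against them (r -0.57, rho -0.60, -0.59 without the 2 farthest mice, -0.54 within groups with a permutation p adjusted 0.00555).

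Of the members that passed in the comparisons, Slc25a25 had r 0.76 and rho 0.59 with Per2, r 0.67 without the 2 farthest mice, and r 0.37 within groups (permutation p adjusted 0.35). With Arntl it had r -0.57 and rho -0.35 (pooled permutation p adjusted 0.00108 and 0.0751), and 0.06 within groups (permutation p adjusted 0.939). Slc25a30 had r -0.76 and rho -0.68 with Arntl, r -0.71 without the 2 farthest mice and -0.24 within groups (permutation p adjusted 0.35). Slc25a25 with Per2 and Slc25a30 with Arntl were both weaker within groups than across all mice (pooled permutation p adjusted 0.000195 for each). Slc25a30 with Per2 had r 0.77, rho 0.63 and 0.28 within groups. Slc25a28 had r -0.20 with Arntl and 0.20 with Per2, and 0.36 and -0.25 within groups (permutation p adjusted 0.108 and 0.389). These members and both clock genes differed between groups, so pooled values repeat those differences in part. Slc25a34 had r 0.63 and rho 0.62 with Arntl, r 0.60 without the 2 farthest mice and 0.22 within groups (permutation p adjusted 0.42). With Per2 it had r -0.65 and rho -0.51, r -0.63 without the 2 farthest mice and -0.27 within groups (permutation p adjusted 0.35). With the slow fibre markers it had r and rho 0.51, r 0.43 without the 2 farthest mice and 0.51 within groups (permutation p adjusted 0.075). Slc25a26, the carrier of S-adenosylmethionine, had r 0.58 and rho 0.60 with Arntl, r 0.62 without the 2 farthest mice, and 0.55 within groups (permutation p adjusted 0.0033). Slc25a1 and Slc25a10 also passed with Arntl within groups, at r -0.49 and -0.48 (permutation p adjusted 0.00555 and 0.00334). With Per2, Slc25a27 and Slc25a39 passed within groups, at r 0.45 and -0.46 (permutation p adjusted 0.0166 and 0.0401). Across all mice Slc25a10 with Arntl, and Slc25a27 and Slc25a39 with Per2, did not pass.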
